A study of Mus musculus with 9 samples.

Results

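The comparison described here sets hypothalamic RNA of male pups whose mothers ate a high-fat high-sucrose diet against that of male pups whose mothers ate a low-fat diet, where both received only the vehicle injection. It used the 3 HP libraries and the 3 LP libraries of the count table, 6 of the 9 libraries in the series, and took in all genes. All pups were wild-type ICR mice, an outbred stock, sampled on postnatal day 21. Dams of LP pups ate a diet with 10% of energy as fat (LFD), and dams of HP pups ate one with 45% of energy as fat plus sucrose (HFHS). The diets began when the dams were 5 weeks old, ran for 5 weeks before mating and went on through gestation and lactation, and litters were set to 10 pups. PBS was given peripherally each day from postnatal day 4 to 16. A further group of 3 libraries, HA, came from HFHS dams and received 4-PBA in place of PBS. HA entered the filter, the scaling and the estimate of the spread between libraries, and in the fits with tissue scores also the slopes on those scores, but is not compared here.

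Each title holds a short code that the labels leave unexplained. It is Lg42 for LP replicate 1, Lg63 for LP replicates 2 and 3, Hg43 for HP replicates 1 and 2, and Hg13 for HP replicate 3. No code occurs in both diets, so code and diet cannot be told apart. Whether the pups within a group had different mothers is not said in the labels, and p-values therefore rest on the spread between single libraries, part of which may be technical.

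The hypothalamus senses leptin, insulin, ghrelin and nutrients and sets food intake and energy use. Agrp and Npy neurons of the arcuate nucleus drive feeding, Pomc and Cartpt neurons restrain it, and both act on Mc4r neurons. A fatty diet of the dam during gestation and lactation is widely studied for lasting effects on this circuit and on protein folding stress in its cells. Cells answer misfolded protein in the cytosol through heat shock factors, which switch on chaperone genes, and in the endoplasmic reticulum through the unfolded protein response. Type I interferon acts through a separate set of genes, switched on by STAT and IRF factors.

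Total counts lay between 18226924 and 21371311 in the 6 libraries. The labelled tissue was checked on the authors' FPKM values, which are scaled for gene length. Avp, the vasopressin gene, stood at 766 to 1015 FPKM and Oxt, the oxytocin gene, at 204 to 342 FPKM. The hypothalamic factor gene Nkx2-1 stood at 12.2 to 16.3 FPKM and Otp at 14.1 to 20.8 FPKM, and the cortical gene Slc17a7 stayed at or below 0.411 FPKM. Markers of neighbouring tissue differed between libraries of one group. The average deviation of 22 striatal genes on the log2 CPM scale was 0.40, 0.56 and -0.17 in LP replicates 1, 2 and 3 and -0.27, -0.25 and -0.28 in HP. For 21 genes of meningeal fibroblasts it was -1.03, -0.55 and 2.21 in LP and -0.69, -0.35 and 0.40 in HP. LP replicates 1 and 2 thus stood apart on striatal genes, and LP replicate 3 on meningeal genes. Each gene below was therefore also fitted with both scores as terms, and a gene is called moving with the tissue scores where that fit shrank its log2 fold change by over 1.5 times or turned its sign, which was so for 39.2% of all genes tested.

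Of 17546 genes tested with edgeR's quasi-likelihood test, 2 passed an adjusted p of 0.05 (0.0114%). Nub1 fell in HP (1 gene, 0.0057%), and Gm6472 rose (1 gene, 0.0057%). At an unadjusted p under 0.05, 547 genes lay higher in HP and 526 lay lower, 6.12% of those tested. All 3 HP libraries lay above all 3 LP libraries for 1040 genes (5.93%) and below them for 1023 genes (5.83%). The estimate was above 0 for 49.1% of genes and below 0 for 50.9%. DESeq2 called 18 genes higher and 14 lower, 31 of them among the genes edgeR tested (0.177%). In bulk tissue, fewer cells of a type and less RNA per cell cannot be told apart, and this holds for every gene below. Values are CPM, counts scaled by library size, unless another unit is named, fold changes are log2 of HP over LP, and every adjusted p is edgeR's over all 17546 genes unless another tool is named. Besides the genes named by rule, these members were chosen after their values were seen, to show their lists: Chordc1, Stip1, Hspa1a, Hspa1b, Hspa8, Hspd1, Hspe1, Hsf1, Sdf2l1, Creld2, Dnajc3, Pdia4, Xbp1, Atf4, Ddit3, Sp100, Oas1a, Ifit1, Gbp3, Stat2, Isg15, Pde1b, Gpr17, Pdyn, Npw, Grm4, Slc6a3, Hnmt, Gch1, Bhlhe40 and mt-Co2.

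Nub1 encodes a protein that binds NEDD8 and its conjugates and sends them to the proteasome. NEDD8 is a small ubiquitin-like modifier of cullins. Nub1 (ENSMUSG00000028954, chromosome 5, 24685532 to 24710378, GRCm38, protein-coding) stood at 71.2, 71.9 and 71.7 CPM in LP replicates 1 to 3 and at 39.0, 41.5 and 41.8 CPM in HP. The LP libraries lay within 1 CPM of each other, and no HP library came near them. The mean fell from 71.6 ± 0.368 CPM to 40.8 ± 1.54 CPM (SD, n = 3 each). On the log2 scale the estimate was -0.81 (SE 0.045), and edgeR gave an adjusted p of 0.000101. Both tissue scores as terms left the estimate at -0.82 (adjusted p = 0.0186, edgeR). Leaving out any 1 library kept it between -0.83 and -0.78 and kept the call. In the HA libraries, which share the dam diet of HP, Nub1 stood at 71.2, 70.6 and 69.3 CPM. Its neighbour on the opposite strand, Gm26648, averaged 23 counts against 1102 for Nub1, and whether counting separated them by strand is not stated.

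Among 28 tested genes of the NEDD8 and cullin pathway, Nub1 was the only gene called. Of the others, Nae1, a subunit of the NEDD8 activating enzyme, stood at 34.9, 40.3 and 36.6 CPM in LP and 43.5, 42.6 and 42.9 CPM in HP, without overlap (log2 fold change 0.21, adjusted p = 0.758, edgeR). Over the pathway 16 members lay higher and 12 lower, with a median log2 fold change of 0.0088 against -0.0024 over all genes.

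Gm6472 (ENSMUSG00000095597, chromosome X, 152909505 to 152910155) is a processed pseudogene. Its transcript matches Rps7, which encodes a protein of the small ribosomal subunit, at 99.386% identity over all 651 bases. The pseudogene stood at 45.2, 50.1 and 47.8 CPM in LP and 70.3, 76.5 and 67.1 CPM in HP, so that no library overlapped. It rose, with an estimate of 0.58 on the log2 scale (SE 0.064) and an adjusted p of 0.0339 in edgeR. The call was lost, at adjusted p of 0.0545 to 0.243 in edgeR, without LP replicate 1 or 2, HP replicate 1 or 2, or HA replicate 1 or 2, and with both tissue scores as terms (adjusted p = 0.124). Rps7 (chromosome 12, 28630854 to 28635953) lay the other way, with 171, 181 and 169 CPM in LP and 147, 141 and 139 CPM in HP (log2 fold change -0.29, SE 0.040, adjusted p = 0.118, edgeR). Summed per library, the 2 genes stood at 216, 230.2 and 217 CPM in LP and 217, 218 and 206 CPM in HP, which overlap. Its estimate was -0.053 on the log2 scale (SE 0.040), with an adjusted p of 0.884 in edgeR. How reads were shared out between such near-identical copies is uncertain, so neither value stands alone. Of 78 tested genes of cytosolic ribosomal proteins 36 lay higher and 42 lower (median -0.0039), and Rps7 was the member of smallest p.

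Nt5dc3, a gene of the family of cytosolic 5'-nucleotidases, and Pdk1 also had no overlap between the 3 HP and the 3 LP libraries. Nt5dc3 falls outside the rule for naming genes and was chosen after its values were seen. Nt5dc3 (ENSMUSG00000054027, chromosome 10, 86779005 to 86838389) stood at 20.8, 19.4 and 20.9 CPM in LP and at 66.2, 65.3 and 71.0 CPM in HP. Every HP library was over 3 times as high as every LP library, with an SD of 0.827 CPM in LP and 3.06 CPM in HP (n = 3 each). The fit of all 9 libraries gave an estimate of 1.73 (SE 0.368, adjusted p = 0.464, edgeR). Its spread includes HA, where the gene stood at 20.7, 19.998 and 63.1 CPM. The fit of the 6 LP and HP libraries alone gave 1.72 (SE 0.065, adjusted p = 1.65e-05, edgeR). With both tissue scores as terms the estimate was 2.69 (adjusted p = 0.0169, edgeR). HA replicate 3 thus had the level of the HP libraries, and HA replicates 1 and 2 had that of LP.

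Pdk1 encodes a kinase that turns down pyruvate dehydrogenase and so the entry of glucose carbon into the citric acid cycle. It is on chromosome 2, 71873224 to 71903858. Its values were 31.8, 35.7 and 34.9 CPM in LP and 48.8, 49.1 and 50.6 CPM in HP. The HP libraries agreed within 2 CPM and all lay above LP (log2 fold change 0.53, SE 0.115, adjusted p = 0.464, edgeR). HA stood at 37.2, 38.6 and 52.2 CPM, again with replicate 3 at the HP level. Without HA replicate 3 the adjusted p of Pdk1 was 0.0234, with both tissue scores as terms it was 0.0366 (edgeR), and DESeq2 gave 0.00733. With only the LP and HP libraries in the fit, edgeR also called Gm12245, a processed pseudogene with 0.0487, 0.0474 and 0 CPM in LP and 1.503, 1.40 and 1.31 CPM in HP (adjusted p = 0.0268), also chosen after its values were seen.

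**Figure D1:**
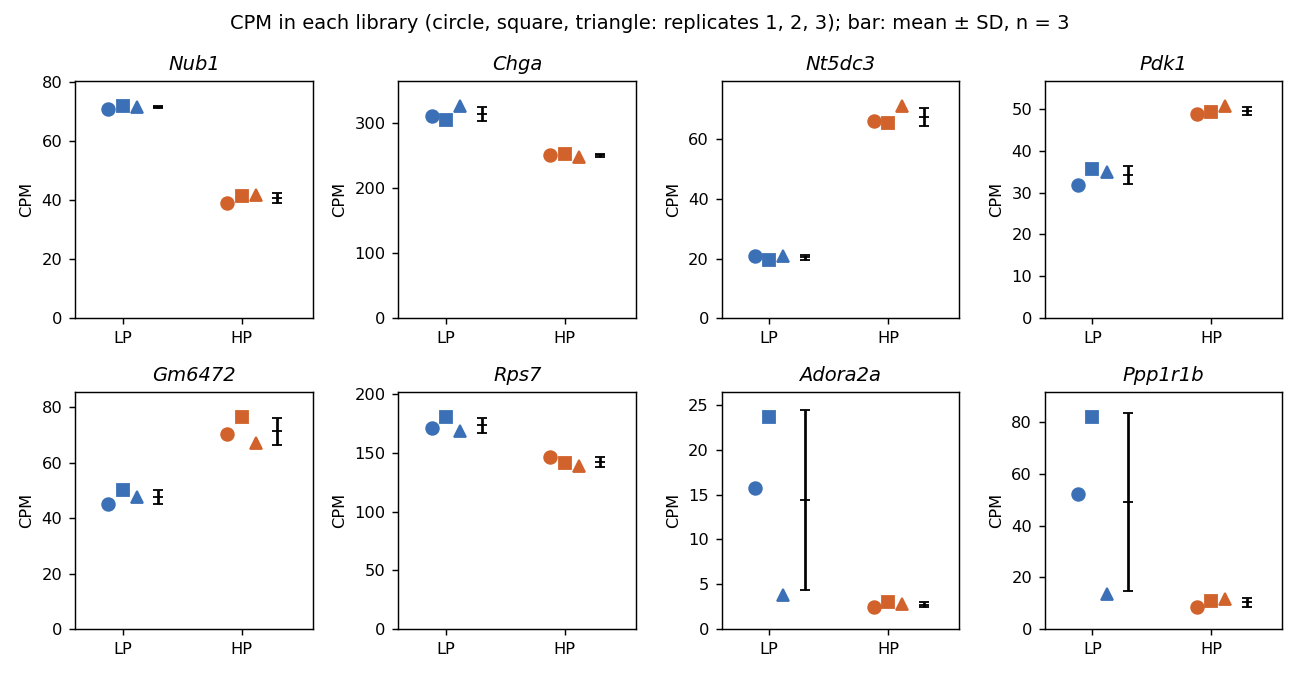
CPM of 8 genes in each LP and HP library (y axis from 0; circle, square and triangle stand for replicates 1, 2 and 3; the bar to the right of the points is the mean ± SD, n = 3). Nub1 falls from about 71.6 to 40.8 CPM with almost no spread, Gm6472 and Rps7 lie in opposite directions, and the striatal genes Adora2a and Ppp1r1b are high in LP replicates 1 and 2 only.

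By the rule for naming, the 12 genes of smallest p on the lower side without overlap were Nub1, Chga, Rps7, Fras1, Kcnj4, Gpcpd1, Padi4, Akr1c14, Mgat4b, Jsrp1, Arpp21 and Cpne5. Apart from Nub1, none passed in edgeR over all genes, where adjusted p ran up to 0.363, while 9 of the 12 passed in DESeq2. Kcnj4 and Arpp21 moved with the tissue scores.

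Chga encodes chromogranin A, a main protein of dense-core secretory granules. It stood at 311, 305 and 326 CPM in LP and 251, 253 and 247 CPM in HP (chromosome 12, 102554969 to 102565028). The lowest LP library was well above the highest HP library, and the estimate was -0.33 (SE 0.045, adjusted p = 0.118 in edgeR, 2.42e-06 in DESeq2). Without HA replicate 3 edgeR gave an adjusted p of 0.0332, and with both tissue scores the estimate was -0.47. Over the 23 tested granin and prohormone processing genes, Chga included, 8 lay higher and 15 lower, with a median of -0.015. Resp18, a granule protein gene of endocrine cells, stood at 367, 352 and 359 CPM in LP and 385, 398 and 376 CPM in HP (log2 fold change 0.10, adjusted p = 0.797, edgeR), above LP in every HP library. Resp18 moved with the tissue scores, to an estimate of 0.056 with both as terms.

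Padi4, which encodes an enzyme that converts arginine in proteins to citrulline, had the largest estimate by size of the genes named by the rule, at low counts. It stood at 5.99, 3.08 and 2.26 CPM in LP and 0.334, 0.259 and 0.105 CPM in HP. Even the lowest LP library was above all HP libraries (log2 fold change -4.00, SE 0.715, adjusted p = 0.324 in edgeR, 1.19e-05 in DESeq2). Akr1c14, which encodes a 3-alpha-hydroxysteroid dehydrogenase, stood at 2.63, 3.17 and 3.92 CPM in LP and 1.56, 1.503 and 1.67 CPM in HP (log2 fold change -1.03, SE 0.191, adjusted p = 0.324, edgeR). Fras1, an extracellular matrix gene, stood at 26.3, 27.3 and 27.3 CPM in LP and 18.8, 20.5 and 19.6 CPM in HP (log2 fold change -0.46, SE 0.073, adjusted p = 0.235, edgeR). In both genes the HP libraries were close to each other and below LP.

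Kcnj4 encodes an inward rectifier potassium channel that is abundant in the forebrain. Its values were 14.6, 18.9 and 10.9 CPM in LP and 4.84, 7.10 and 5.96 CPM in HP (log2 fold change -1.31, SE 0.213, adjusted p = 0.235, edgeR). No library overlapped, but the estimate was -0.50 with both tissue scores as terms. Arpp21, a phosphoprotein gene of striatal neurons, stood at 106, 133 and 90.6 CPM in LP and 67.0, 77.7 and 68.5 CPM in HP (log2 fold change -0.63), which became -0.30. The remaining 4 genes, Gpcpd1, Mgat4b, Jsrp1 and Cpne5, had log2 fold changes of -0.31, -0.28, -1.56 and -0.38.

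On the higher side the rule named Gstp1, Casc4, Zfp92, Lsm5, Irf7, Rps6kc1, Fn3krp, Dnajb1, Cd82, Aen, Hsph1 and Gtpbp4. With Gm6472 these 13 genes had adjusted p between 0.0339 and 0.464 in edgeR, 12 of them passed in DESeq2, and Gstp1 moved with the tissue scores. Gstp1 encodes a glutathione transferase. It stood at 93.3, 78.4 and 116 CPM in LP and 143, 166 and 166 CPM in HP (log2 fold change 0.72, SE 0.118, adjusted p = 0.235, edgeR), and at 0.37 with both tissue scores. Its transcript is 98.161% identical to Gstp2 over 707 bases, and the sum of Gstp1, Gstp2 and Gstp-ps had an estimate of 0.74 (SE 0.114, adjusted p = 0.231, edgeR). All HP libraries were above LP for the gene and for the sum. The other glutathione and antioxidant genes were evenly split, with 23 of 41 higher and a median of 0.0072.

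Lsm5, which encodes a subunit of the LSm ring that binds U6 RNA, stood at 2.48, 1.90 and 1.67 CPM in LP and 5.34, 3.58 and 5.02 CPM in HP (log2 fold change 1.1997, SE 0.223, adjusted p = 0.324, edgeR). Cd82, a tetraspanin gene, stood at 22.01, 24.3 and 26.8 CPM in LP and 36.2, 35.5 and 42.4 CPM in HP (log2 fold change 0.64, SE 0.128, adjusted p = 0.363, edgeR). Casc4 had the smallest change of the 12 but very even libraries, 143, 146 and 141 CPM in LP against 166, 168 and 161 CPM in HP (log2 fold change 0.20, SE 0.035, adjusted p = 0.324, edgeR). In these 3 genes no library overlapped. Zfp92, Rps6kc1, Fn3krp, Aen and Gtpbp4 had log2 fold changes of 0.30, 0.29, 0.48, 0.33 and 0.40.

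**Figure D2:**
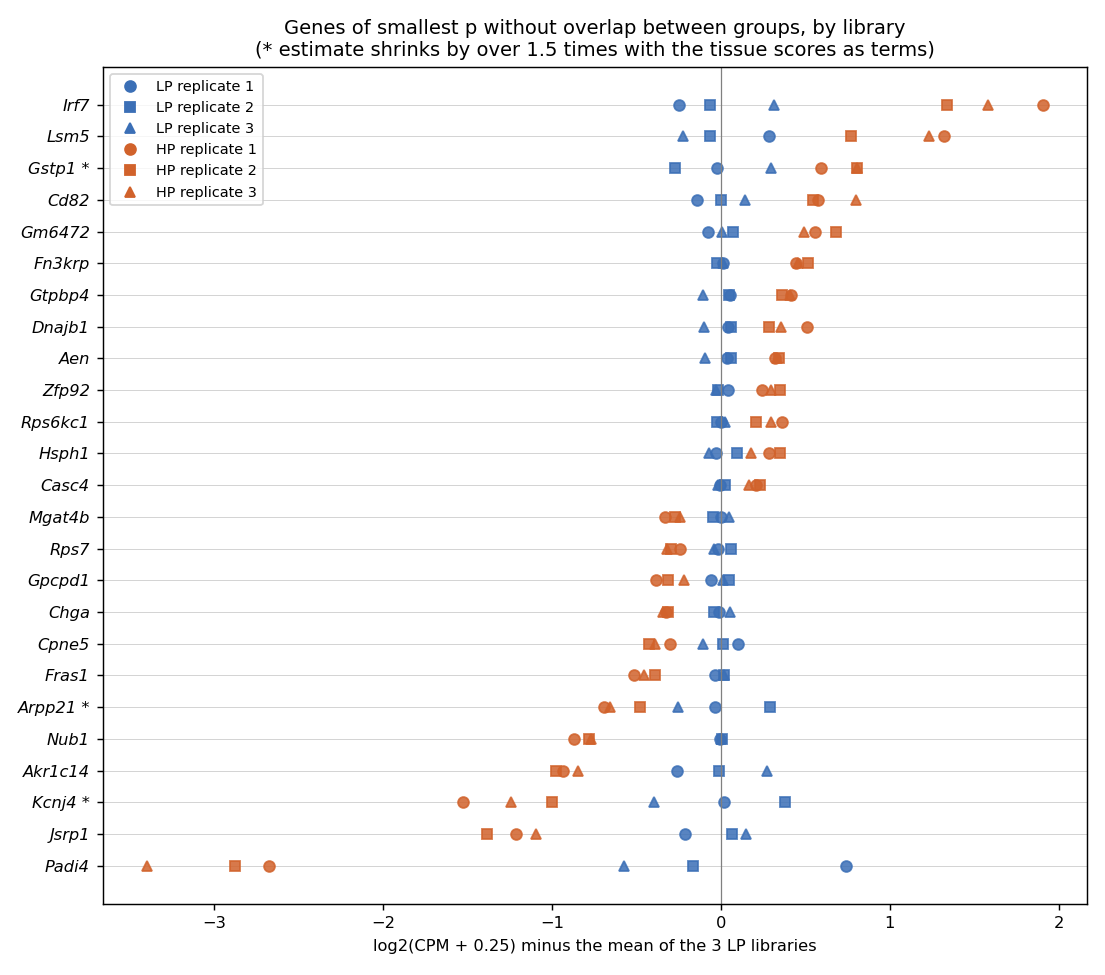
Each row is 1 of the 25 genes called or named by the rule, and each point is 1 library, placed at its log2(CPM + 0.25) minus the mean of the 3 LP libraries (x axis; blue LP, orange HP). HP points lie entirely to one side of LP points in every row because the rule asked for it, and a star marks Gstp1, Kcnj4 and Arpp21, which move with the tissue scores.

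Genes of the cytosolic chaperone list lay higher in HP as a group, by small amounts, in each of the 3 libraries. The list also holds the mitochondrial chaperonin genes Hspd1 and Hspe1 and the factor gene Hsf1, and all counts include them. Of 28 tested members 24 had a higher estimate and 4 a lower one, with a median log2 fold change of 0.16 against -0.0024 over all genes. All HP libraries were above all LP libraries in 15 of 28, where 5.93% of all genes were, and in 0 members were they all below. An unadjusted p under 0.05 was reached by 13, all higher, where 3.12% of all genes reached it on that side. None passed in edgeR over all genes, and 2 (Dnajb1 and Hsph1) passed in DESeq2. The list was chosen with its direction in these libraries known, which is therefore not independent evidence.

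The regulatory letters in front of these genes are shown because chaperone genes are known targets of heat shock factors, which bind inverted repeats of GAA. Promoter windows were read from RefSeq (GRCm38.p6, 250 bases before to 50 bases after a start site). The motif searched was GAANNTTC or TTCNNGAA, each its own reverse complement, so both strands are covered. Capitals mark the matches.
Hsph1, chr5:149636287-149636399, reverse strand: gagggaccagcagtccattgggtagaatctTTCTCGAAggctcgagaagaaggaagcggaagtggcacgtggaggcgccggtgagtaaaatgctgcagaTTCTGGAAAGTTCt
Chordc1, chr9:18292233-18292316, forward strand: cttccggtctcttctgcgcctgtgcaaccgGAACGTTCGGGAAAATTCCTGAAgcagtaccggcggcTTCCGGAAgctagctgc
Hspa1b, chr17:34959305-34959372, reverse strand: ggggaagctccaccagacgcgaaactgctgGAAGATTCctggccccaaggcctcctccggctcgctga
Hspe1, chr1:55088029-55088106, forward strand: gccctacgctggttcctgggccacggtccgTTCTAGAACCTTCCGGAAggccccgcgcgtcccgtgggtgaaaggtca
Overlapping matches run together in Chordc1, Hsph1 and Hspe1. The Hspe1 window lies within the gene bounds of Hspd1, near its start, on the other strand. A match stood in the windows of 14 of 22 chaperone genes found in the table (63.6%), against 13.9% of 12356 tested genes and 17.0% of all 27025 genes in it. Among the chaperones above in every HP library it was 8 of 12 (66.7%). Dnajb1 and Stip1 had no match in the windows read. A match is a description of letters, not of a bound site.

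Dnajb1 encodes the HSP40 cochaperone that hands substrates to HSP70. It stood at 98.5, 99.6 and 89.2 CPM in LP and 136, 117 and 123 CPM in HP (log2 fold change 0.39, SE 0.074, adjusted p = 0.324 in edgeR, 0.00189 in DESeq2). Hsph1, an exchange factor of HSP70, stood at 362, 395 and 352 CPM in LP and 450.2, 470 and 418 CPM in HP (log2 fold change 0.27, SE 0.056, adjusted p = 0.448 in edgeR, 0.00442 in DESeq2). Both were higher in every HP library. Chordc1, an HSP90 cochaperone gene, stood at 115, 126 and 116 CPM in LP and 149, 144 and 129 CPM in HP (log2 fold change 0.24, adjusted p = 0.628, edgeR). Stip1, which links HSP70 to HSP90, stood at 270.1, 283 and 259 CPM in LP and 320, 308 and 299.7 CPM in HP (log2 fold change 0.19, adjusted p = 0.534, edgeR). These cochaperones thus had no overlap either.

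The inducible HSP70 genes Hspa1b and Hspa1a had the largest estimates of the group, 0.71 and 0.76. Their transcripts are 99.228% identical over 2201 bases, so they were also summed. The sum stood at 15.1, 23.4 and 20.1 CPM in LP and 32.3, 33.8 and 30.1 CPM in HP (log2 fold change 0.71, SE 0.217, adjusted p = 0.727, edgeR). Their constitutive relative Hspa8 stood at 1148, 1202 and 1127 CPM in LP and 1290.1, 1219 and 1214 CPM in HP (log2 fold change 0.099, adjusted p = 0.829, edgeR). HP lay above LP in both. Hspd1 and Hspe1, which encode the mitochondrial chaperonin pair and share a start region, had estimates of 0.16 and 0.19 without overlap, and that of Hspe1 became 0.068 with both tissue scores. Hsf1, the factor gene itself, stood at 35.0, 35.3 and 37.6 CPM in LP and 34.1, 33.0 and 35.9 CPM in HP, which overlap (adjusted p = 0.907, edgeR).

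With both tissue scores as terms the group kept its direction. There 25 of 28 had a higher estimate and the median was 0.21, and 9 of 28 members moved with the scores, against 39.2% of all genes. By library, 24, 25 and 23 of the 28 lay above the LP mean in HP replicates 1, 2 and 3, and the HP mean lay above LP replicates 1, 2 and 3 in 24, 24 and 23. Without LP replicate 3, 17 members lay above, where 11% of all genes did. Such a count can only stay or rise when an LP library is left out.

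Genes of the unfolded protein response of the endoplasmic reticulum leaned the same way, more weakly. Of 40 tested, 31 had a higher estimate and 9 a lower one (median 0.073), 8 reached an unadjusted p under 0.05, all higher (3.12% of all genes did on that side), and 13 lay above in all HP libraries (5.93% of all genes). None passed over all genes in edgeR or DESeq2. The ER stress element, here CCAAT and CCACG with 9 bases between them on either strand, was searched after these values were seen, and 4 windows are shown because they hold it and belong to members above in every HP library, with the element in capitals.
Hspa5, chr2:34771995-34772073, forward strand: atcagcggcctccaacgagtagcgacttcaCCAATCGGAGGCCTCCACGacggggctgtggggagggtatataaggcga
Hsp90b1, chr10:86705503-86705686, reverse strand: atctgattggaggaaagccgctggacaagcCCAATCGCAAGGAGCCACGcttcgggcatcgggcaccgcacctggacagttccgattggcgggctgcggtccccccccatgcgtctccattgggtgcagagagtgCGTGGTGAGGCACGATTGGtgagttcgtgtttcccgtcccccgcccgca
Creld2, chr15:88819490-88819568, forward strand: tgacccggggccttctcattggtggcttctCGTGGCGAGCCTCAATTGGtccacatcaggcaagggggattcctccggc
Dnajc3, chr14:118937797-118937875, forward strand: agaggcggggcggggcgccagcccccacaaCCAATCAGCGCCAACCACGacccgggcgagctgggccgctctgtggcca
The element was in the windows of 9 of 34 genes of the list (26.5%), against 0.178% of tested genes and 0.137% of all genes in the table, and in 5 of the 11 above in every HP library. Pdia4 and Sdf2l1, also above in every HP library, had no match in theirs.

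Hspa5 encodes BiP, the HSP70 of the reticulum, which also binds and restrains its stress sensors. It stood at 618, 661 and 607 CPM in LP and 736, 760.4 and 712 CPM in HP (log2 fold change 0.23, SE 0.078, adjusted p = 0.771, edgeR). Hsp90b1, the HSP90 of the reticulum, stood at 357, 401 and 347 CPM in LP and 431, 439 and 409 CPM in HP (log2 fold change 0.21, SE 0.066, adjusted p = 0.736, edgeR). Sdf2l1, an ER resident cochaperone gene, stood at 21.9, 25.5 and 24.998 CPM in LP and 27.5, 35.1 and 30.6 CPM in HP (log2 fold change 0.37, SE 0.130, adjusted p = 0.784, edgeR). In all 3 the lowest HP library was above the highest LP library. Ddit3, which encodes the factor CHOP, stood at 26.9, 25.2 and 28.6 CPM in LP and 27.9, 26.5 and 25.6 CPM in HP, and Atf4 at 99.8, 113 and 109 CPM against 106, 102 and 109 CPM (adjusted p = 0.989 and 0.967, edgeR). Both overlap fully. Xbp1, the factor gene of the IRE1 arm, stood at 113, 126 and 115 CPM in LP and 139, 137 and 133 CPM in HP (log2 fold change 0.21, adjusted p = 0.867, edgeR).

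Proteasome subunit genes had 27 of 36 estimates above 0, with a median of 0.029 and 2 members above in all HP libraries, a share near the 5.93% of all genes. Psmd6, a subunit of the regulatory particle, stood at 83.8, 90.1 and 81.6 CPM in LP and 91.9, 97.3 and 90.9 CPM in HP (adjusted p = 0.792, edgeR).

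Interferon response genes had the highest median of the 44 lists, at low levels. Of 45 tested, 39 had a higher estimate and 6 a lower one (median 0.41), and 18 lay above in all HP libraries and 0 below, where 5.93% and 5.83% of all genes did. An unadjusted p under 0.05 was reached by 14, all higher, against 3.12% of all genes. Irf7 and Sp100 passed in DESeq2, and none passed in edgeR over all genes. Windows of 4 members are shown because they hold the interferon-stimulated response element in capitals, read as a pair of GAAA with 2 bases between them (TTTC on the other strand), to which IRF and STAT factors are known to bind.
Ifit1, chr19:34640755-34640843, forward strand: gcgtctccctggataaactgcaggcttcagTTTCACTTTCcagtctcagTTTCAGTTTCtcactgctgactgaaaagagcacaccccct
Oas1a, chr5:120907500-120907575, reverse strand: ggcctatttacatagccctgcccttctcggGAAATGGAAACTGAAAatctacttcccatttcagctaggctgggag
Gbp3, chr3:142559969-142560044, forward strand: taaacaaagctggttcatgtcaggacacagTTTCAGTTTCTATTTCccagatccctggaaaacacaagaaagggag
Stat2, chr10:128270248-128270315, forward strand: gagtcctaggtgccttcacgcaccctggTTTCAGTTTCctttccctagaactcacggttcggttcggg
The element stood in 17 of 35 genes of the list found in the table (48.6%), against 3.56% of tested genes and 3.99% of all genes, and in 8 of the 15 above in every HP library (53.3%). Irf7 had no match in its window.

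Irf7 encodes the factor that amplifies interferon production. It stood at 1.56, 1.80 and 2.42 CPM in LP and 7.79, 5.18 and 6.17 CPM in HP (log2 fold change 1.73, SE 0.325, adjusted p = 0.324 in edgeR, 0.000564 in DESeq2). The lowest HP library was over 2 times the highest LP library. Irf7 overlaps Phrf1 on the opposite strand, which averaged 1101.7 counts against 78.8, and whether counting separated them by strand is not stated. Sp100, which encodes a protein of PML nuclear bodies, stood at 0.877, 1.23 and 1.67 CPM in LP and 5.06, 3.27 and 3.71 CPM in HP (log2 fold change 1.67, SE 0.412, adjusted p = 0.566, edgeR). Oas1a, an enzyme gene that activates RNase L, stood at 0.487, 0.711 and 0.538 CPM in LP and 2.17, 1.19 and 1.26 CPM in HP (log2 fold change 1.40, adjusted p = 0.807, edgeR). Ifit1, whose product binds viral RNA, stood at 1.36, 1.71 and 1.83 CPM in LP and 4.62, 2.44 and 3.35 CPM in HP (log2 fold change 1.08, adjusted p = 0.816, edgeR). In all of these HP replicate 1 was the highest library.

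The list differed between libraries within LP. Its average deviation was -0.62, -0.35 and 0.11 in LP replicates 1, 2 and 3 and 0.47, 0.17 and 0.21 in HP. Against LP replicates 1 and 2 the HP mean was higher in 42 and 41 of the 45 genes, and against LP replicate 3 in 25. Isg15, the ubiquitin-like product of the response, shows it, with 0.341, 1.90 and 1.99 CPM in LP and 4.79, 1.87 and 2.98 CPM in HP, which overlap. Without LP replicate 3, the LP library nearest to HP on this list, 32 of 45 lay above in all HP libraries, where 11% of all genes did. That library was picked after its values were seen, so this rise was set in advance and is no further evidence. With both tissue scores as terms 41 of 45 had a higher estimate and the median was 0.81. Genes of the inflammation list split, with 8 of 20 higher and a median of -0.052. Of 20 microglial genes 6 lay higher and 14 lower (median -0.096).

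**Figure D3:**
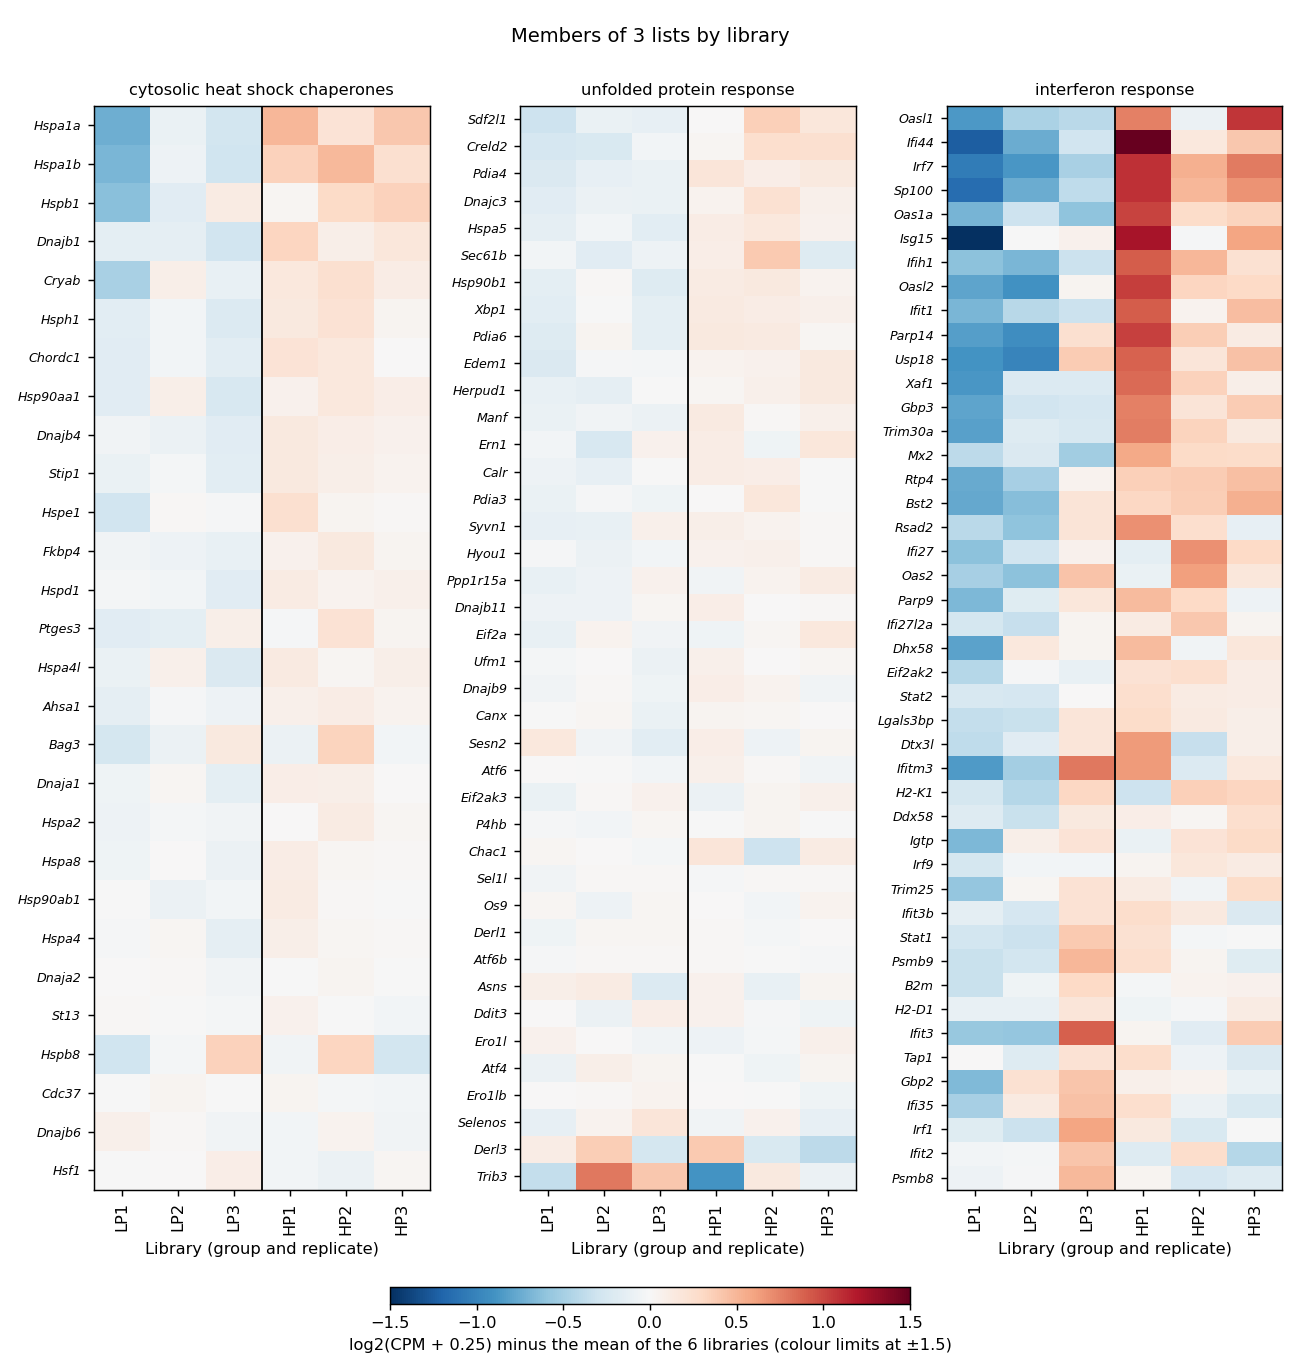
Colour gives log2(CPM + 0.25) minus the mean of the 6 libraries for each tested member (rows, ordered by estimate) of the cytosolic chaperone, unfolded protein response and interferon lists, with libraries in columns and a line between LP and HP. Chaperones are paler but even over the 3 HP libraries, while in most upper interferon rows LP replicate 1 is the lowest and HP replicate 1 the highest, and LP replicate 3 overlaps HP in the lower rows.

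Striatal genes lay lower in HP. The largest gaps were against LP replicates 1 and 2, though some members also lay below LP replicate 3. Of 22 tested, 20 had a lower estimate (median -0.41), 16 reached an unadjusted p under 0.05, all lower, where 3% of all genes did on that side, and 9 lay below in all HP libraries, where 5.83% of all genes did. None passed in edgeR, and 1, Adora2a, passed in DESeq2. Adora2a, the adenosine receptor gene of indirect-pathway striatal neurons, stood at 15.7, 23.6 and 3.76 CPM in LP and 2.39, 2.95 and 2.77 CPM in HP (log2 fold change -2.41, SE 0.507, adjusted p = 0.464, edgeR). Ppp1r1b, which encodes the dopamine signalling protein DARPP-32, stood at 52.4, 82.0 and 13.4 CPM in LP and 8.35, 10.8 and 11.5 CPM in HP (log2 fold change -2.27, SE 0.506, adjusted p = 0.464, edgeR). Pde1b, a phosphodiesterase gene abundant in striatal neurons, stood at 135, 147 and 118 CPM in LP and 108, 107 and 111 CPM in HP (log2 fold change -0.30, SE 0.071, adjusted p = 0.530, edgeR). LP replicate 3 was the lowest LP library in each.

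With both tissue scores as terms, of which the striatal one is built from these genes, the estimates were -0.15 for Adora2a, 0.22 for Ppp1r1b and -0.15 for Pde1b, and 17 of 22 moved with the scores. Some genes outside the list were also high in LP replicates 1 and 2. Crym, a thyroid hormone binding protein gene counted here among tanycyte and thyroid genes, stood at 19.3, 31.1 and 6.88 CPM in LP and 4.67, 4.82 and 4.55 CPM in HP (log2 fold change -2.03), which became 0.15. Gabrd, a GABA receptor subunit gene, stood at 3.75, 6.11 and 0.538 CPM in LP and 0.891, 0.778 and 0.471 CPM in HP (log2 fold change -2.28), which became 0.70. Kcnh3, a potassium channel gene, stood at 9.64, 13.2 and 3.55 CPM in LP and 3.40, 3.42 and 3.19 CPM in HP (log2 fold change -1.40), which became 0.22. Each was highest in LP replicate 2. When LP replicate 3 was left out, edgeR called 4 genes higher and 17 lower, and 18 of these 21 moved with the scores, among them 6 of the striatal list. Whether the striatal genes account for these calls was not tested.

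Meningeal fibroblast genes had 20 of 21 estimates below 0 and a median of -1.08, yet 0 lay below LP in all HP libraries. Ogn, the matrix gene osteoglycin, stood at 1.32, 2.51 and 51.0 CPM in LP and 2.67, 1.87 and 6.95 CPM in HP (log2 fold change -2.24, SE 1.56, adjusted p = 0.886, edgeR). LP replicate 3 alone was high. Without it 19 of the 21 lay higher in HP and the median was 0.59, so the sign of this list rests on that library. Blood genes also lay lower, with 8 of 8 lower (median -0.81) and 4 of 8 without LP replicate 3. Lepr, the leptin receptor gene, stood at 6.38, 7.63 and 17.1 CPM in LP and 6.73, 6.998 and 7.58 CPM in HP, high in LP replicate 3 only (log2 fold change -0.54, SE 0.496, adjusted p = 0.904, edgeR), and its estimate without that library was 0.021.

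Myelin genes lay higher in HP on average, but LP replicate 2 did not share the gap. All 22 tested genes of mature oligodendrocytes had a higher estimate (median 0.20), while only 2, Ermn and Myrf, lay above in all HP libraries, a share of 9.09% against 5.93% of all genes. Ermn, which encodes a cytoskeletal protein of myelinating oligodendrocytes, stood at 62.8, 89.7 and 67.5 CPM in LP and 103, 99.9 and 90.8 CPM in HP (log2 fold change 0.42, SE 0.175, adjusted p = 0.810, edgeR). LP replicate 2 lay just under the lowest HP library. Against LP replicates 1 and 3 the HP mean was higher in 22 and 21 of 22, and against LP replicate 2 in 5. Without LP replicate 2, 18 lay above in all HP libraries (81.8%, against 12.7% of all genes). That library was picked after it was seen to close the gap, so this rise was set in advance and is no further evidence. With both tissue scores as terms 12 of 22 lay higher, the median was 0.0018, and 20 of 22 moved with the scores. Among 15 genes of oligodendrocyte precursors 10 lay higher. Gpr17, a receptor gene of cells about to form myelin, stood at 388, 369.9 and 290.1 CPM in LP and 422, 436 and 389 CPM in HP, just without overlap (log2 fold change 0.25, adjusted p = 0.807, edgeR).

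**Figure D4:**
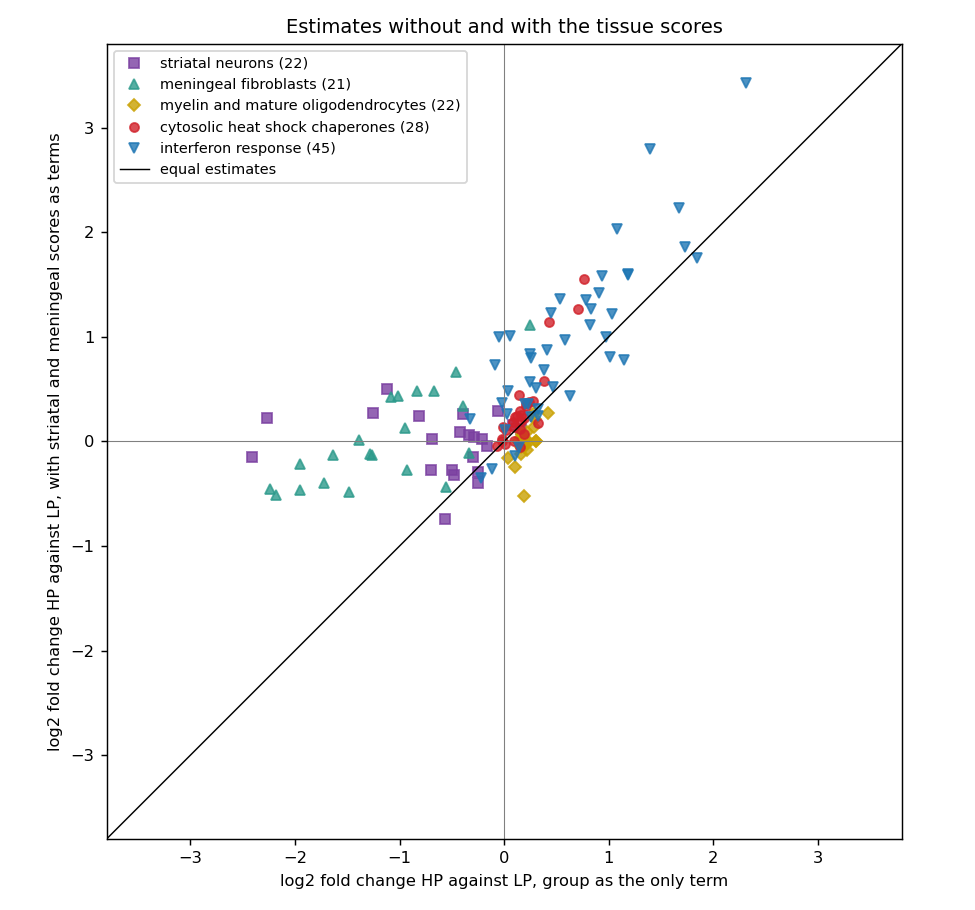
Each point is 1 tested member of 5 lists, with its log2 fold change of HP against LP from the fit with the group alone on the x axis and from the fit with striatal and meningeal scores as terms on the y axis; the line marks equal estimates. Most striatal, meningeal and myelin genes shrink towards 0 or turn (medians 0.033, -0.12 and 0.0018). The scores are built from the striatal and meningeal lists, so the shrinkage of those lists was set in advance. Most chaperone and interferon genes lie near or above the line (medians 0.21 and 0.81).

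The genes of the feeding circuit were detected in every library, and none was called. Agrp, the gene of the melanocortin antagonist, stood at 12.7, 9.33 and 11.7 CPM in LP and 9.02, 16.1 and 12.1 CPM in HP. Npy, its partner peptide gene, stood at 33.3, 28.5 and 30.5 CPM in LP and 25.05, 33.1 and 25.2 CPM in HP. These overlap, with HP replicate 2 the highest HP library in both. Pomc, the precursor gene of alpha-MSH, stood at 51.8, 50.03 and 48.3 CPM in LP and 52.0, 79.3 and 59.1 CPM in HP (log2 fold change 0.34, SE 0.155, adjusted p = 0.816, edgeR). HP replicate 1 cleared LP by a small margin and HP replicate 2 stood out. Cartpt stood at 88.2, 81.5 and 86.0 CPM in LP and 79.6, 107 and 80.4 CPM in HP (log2 fold change 0.064, adjusted p = 0.950, edgeR). Mc4r, the receptor of alpha-MSH, stood at 6.87, 6.73 and 3.60 CPM in LP and 6.23, 4.46 and 5.23 CPM in HP (log2 fold change -0.11, adjusted p = 0.965, edgeR). Both overlap, and Agrp also overlaps Ctcf and Ripor1 on the opposite strand, which averaged 1237 and 1227 counts against 229.8.

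Over 22 appetite peptide genes 7 lay higher and 15 lower (median -0.071), and 1 lay above and 2 below in all HP libraries, near the 5.93% and 5.83% of all genes. An unadjusted p under 0.05 was reached by 1 member on each side, and DESeq2 called 0. Those below were Pdyn, the dynorphin gene, with 74.4, 57.8 and 59.1 CPM in LP and 50.4, 57.3 and 57.8 CPM in HP, and Npw, the neuropeptide W gene, with 3.41, 3.08 and 5.27 CPM against 2.89, 1.04 and 2.93 CPM (adjusted p = 0.816 and 0.822, edgeR). Their gaps were small beside the spread within a group. Over 36 receptors and signalling genes of energy balance 16 lay higher and 20 lower (median -0.018). Irs1, which relays insulin signals, stood at 18.9, 17.1 and 16.5 CPM in LP and 22.5, 21.8 and 20.9 CPM in HP (log2 fold change 0.31, SE 0.088, adjusted p = 0.683, edgeR). Glp1r, the receptor gene of the incretin GLP-1, stood at 3.75, 5.87 and 3.98 CPM in LP and 5.73, 6.01 and 6.80 CPM in HP (log2 fold change 0.45, SE 0.177, adjusted p = 0.807, edgeR). Irs1 did not overlap, and Glp1r did. Among 15 neuroendocrine hormone genes 8 lay higher, none without overlap.

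Synaptic lists leaned lower. Of 40 glutamate receptor and scaffold genes 30 had a lower estimate (median -0.065) and 5 lay below in all HP libraries (12.5%), against 5.83% of all genes. Grin2a, an NMDA receptor subunit gene, stood at 31.5, 29.2 and 29.0 CPM in LP and 26.7, 25.9 and 21.3 CPM in HP (log2 fold change -0.28, SE 0.092, adjusted p = 0.758, edgeR). Grm4, a presynaptic metabotropic receptor gene, stood at 49.3, 48.8 and 54.9 CPM in LP and 41.4, 46.7 and 43.6 CPM in HP (log2 fold change -0.22, adjusted p = 0.767, edgeR). Neither overlapped or moved with the tissue scores. Presynaptic release genes had 25 of 33 lower estimates with 0 members below in all HP libraries. Of 16 monoamine and histamine genes 13 lay lower. In all of these except Drd2, Hnmt and Gch1, LP replicate 3 was the highest of the 6 libraries. Slc6a3, for example, stood at 5.65, 16.1 and 43.8 CPM in LP and 4.23, 11.6 and 16.3 CPM in HP. Drd2, the member of smallest p, had no overlap (log2 fold change -0.48, adjusted p = 0.683, edgeR). It is also in the striatal list and moved with the tissue scores, to -0.32. Th, the rate-limiting enzyme gene of dopamine synthesis, stood at 29.7, 31.3 and 41.7 CPM in LP and 22.8, 26.5 and 31.2 CPM in HP, which overlap (log2 fold change -0.35, adjusted p = 0.807, edgeR).

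Metabolic lists showed small shifts. Sterol synthesis had 19 of 24 higher estimates (median 0.069) and 4 members above in all HP libraries (5.93% of all genes were), and 16 of 24 moved with the tissue scores. Fatty acid genes had 27 of 34 higher estimates with a median of 0.037 and 16 moved with the scores. Transcripts of the mitochondrial genome had 11 of 13 lower estimates (median -0.098). The gene mt-Co2, a subunit gene of cytochrome oxidase, stood at 54.8, 111 and 60.5 CPM in LP and 48.9, 57.9 and 50.7 CPM in HP, which overlap (log2 fold change -0.52, adjusted p = 0.810, edgeR). The most abundant member, mt-Co1, averaged 14726 CPM in LP and 14163 CPM in HP (log2 fold change -0.056, adjusted p = 0.941, edgeR). Of the list, 9 of 13 moved with the scores. Nuclear genes of the respiratory chain split 22 to 27.

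**Figure D5:**
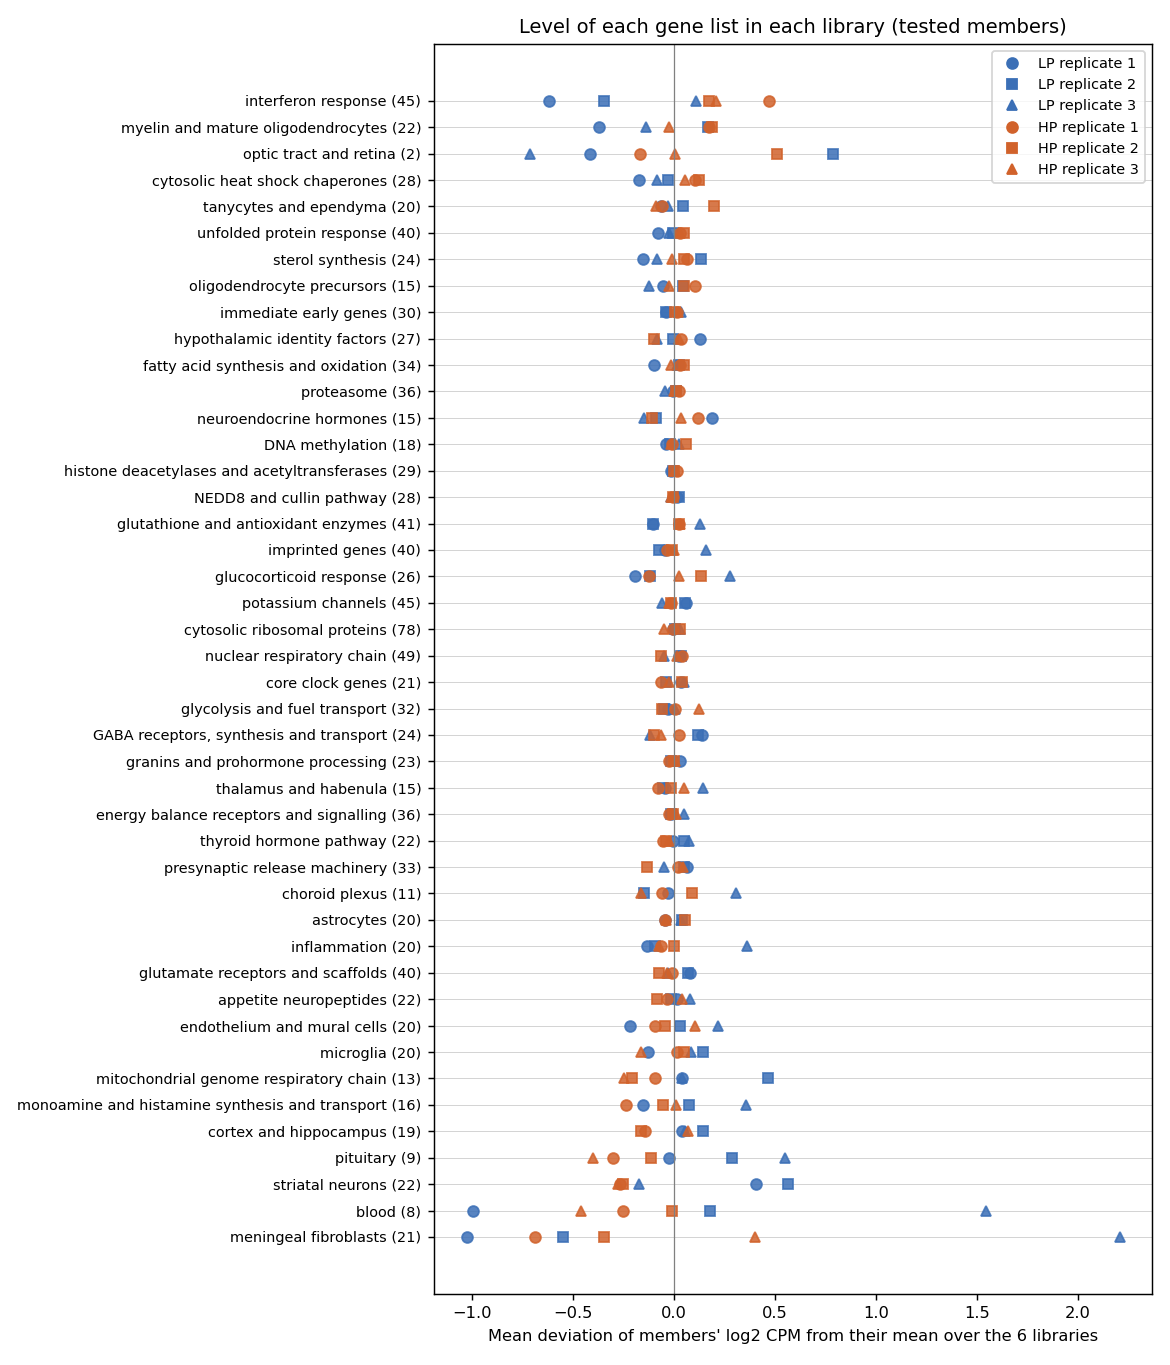
Each row is 1 of 44 gene lists (tested members in brackets, ordered by median log2 fold change), and each point stands for 1 library, at the average over its members of log2 CPM minus the mean of all 6. Chaperone and unfolded protein response points of HP all lie to the right of those of LP, while the widest rows, meningeal and blood genes, are spread within LP, with replicate 1 lowest and replicate 3 highest.

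Among lists of gene regulation, core clock genes had 9 of 21 higher estimates and histone deacetylase and acetyltransferase genes 15 of 29. Of 18 DNA methylation genes 11 lay higher, 2 above and 3 below in all HP libraries, against 5.93% and 5.83% of all genes. Tet1, which encodes an enzyme that oxidises methylated cytosine, stood at 29.8, 27.5 and 29.2 CPM in LP and 24.99, 24.7 and 26.8 CPM in HP (log2 fold change -0.18, SE 0.064, adjusted p = 0.792, edgeR). Tet2, its relative, stood at 32.9, 36.1 and 33.8 CPM in LP and 29.8, 30.5 and 28.9 CPM in HP (log2 fold change -0.21, adjusted p = 0.779, edgeR), and became -0.072 with both tissue scores. Neither overlapped. Members of the clock list below LP in every HP library were Dbp, Npas2 and Bhlhe40, 3 of 21 against 5.83% of all genes. Dbp, an output gene of the clock, stood at 38.1, 34.2 and 36.2 CPM in LP and 29.9, 33.0 and 31.4 CPM in HP (log2 fold change -0.20, adjusted p = 0.798, edgeR), and all 3 moved with the tissue scores. Imprinted genes split 22 to 18 and glucocorticoid response genes 14 to 12, and medians of both lay within 0.01 of 0.

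Immediate early genes, which mark recent neuronal activity, had 21 of 30 higher estimates and 1 member above in all HP libraries (5.93% of all genes were). That was Jun, with 55.0, 53.6 and 60.8 CPM in LP and 68.9, 69.6 and 61.0 CPM in HP (log2 fold change 0.24, SE 0.069, adjusted p = 0.690, edgeR), where HP replicate 3 cleared LP replicate 3 by less than 1 CPM. Potassium channel genes split 20 to 25, with 5 above and 3 below in all HP libraries, where 5.93% and 5.83% of all genes were. Thyroid hormone genes split 9 to 13. Slco1c1, a thyroxine carrier gene of brain vessels, stood at 60.3, 65.6 and 53.2 CPM in LP and 67.3, 68.5 and 74.8 CPM in HP (log2 fold change 0.23, SE 0.081, adjusted p = 0.773, edgeR). Its libraries did not overlap. It did not shrink with both tissue scores as terms, where its estimate was larger, at 0.51.

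Other lists of cell types and neighbouring tissue had these counts. Astrocyte genes had 7 of 20 higher estimates, and Fgfr3, a growth factor receptor gene, stood at 198, 195 and 199 CPM in LP and 167, 177 and 194 CPM in HP (log2 fold change -0.14, adjusted p = 0.829, edgeR), just without overlap. Tanycyte and ependymal genes had 14 of 20 higher, endothelial and mural genes 9 of 20, and factor genes of hypothalamic identity 16 of 27. GABA genes had 9 of 24 higher, cortical and hippocampal genes 6 of 19, thalamic and habenular genes 5 of 15, choroid plexus genes 4 of 11, pituitary genes 3 of 9 and glycolysis genes 15 of 32. No member of these lists was called in edgeR, at most 3 of any list reached an unadjusted p under 0.05 in one direction, and DESeq2 called 1, Pdk1 of the glycolysis list.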

How the data were processed

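Hypothalamic RNA of 9 male pups was sequenced, and the LP and HP libraries (n = 3 each) were compared. The authors deposited whole-number read counts per gene, which are not normalized, and FPKM values, which were used only to check tissue markers. The submitters' processing notes name build mm9 and the tools DESeq2 1.16.1, HISAT2 2.0.5 and featureCounts 1.5.0-p3. Start and end matched GENCODE M21 for 53585 of 54495 shared gene identifiers (98.3%), and coordinates were therefore read as GRCm38. Per the labels' protocols, libraries were made from 3 µg of total RNA with the NEBNext Ultra kit, and strand is not mentioned.

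Counts of 54532 genes in all 9 libraries were filtered with filterByExpr (17546 kept), scaled by TMM and fitted with edgeR 4.0.16 (R 4.3.3) by quasi-likelihood, with the group as the only term. The biological coefficient of variation was 14.1%. Tests were two-sided at a Benjamini-Hochberg adjusted p of 0.05 over the genes kept. SE is the size of the estimate over the root of its F. List scores used log2 CPM with a prior count of 2. Chi-square per degree of freedom between replicates lay between 4.73 and 14.96, so no pair of libraries agreed within sampling noise. The method was tested on simulated counts. Alternatives were other scalings, filters, tests (DESeq2 1.42.0, limma 3.58.1), libraries and terms.

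The rule named each called gene, the 12 higher and 12 lower genes of smallest p without overlap between groups and at least 1 CPM in the higher group, up to 2 genes of smallest p per list, and 6 feeding genes. Members, the 44 lists and the rule were chosen with earlier results of these data known. Some members that the rule named are not reported here.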

Additional observations from a re-analysis of the deposited data

How the results depend on the processing

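The count of genes called higher was 1 and of genes called lower 1. With library totals it was 0 higher, with the striatal score as a term 0 higher, with the meningeal score as a term 7 higher and 7 lower, and with both scores 2 higher. Without a low-count filter 25 were called higher and 28 lower, DESeq2 called 18 higher and 14 lower, and the LP and HP libraries alone gave 3 higher. Leaving out 1 library at a time gave 0 to 4 higher and 1 to 17 lower, the extremes of 4 and 17 coming without LP replicate 3 (4 higher also without HA replicate 3), and leaving out LP replicate 3 and HA replicate 3 together gave 8 higher and 29 lower. Nub1 was called in each of these fits, and Gm6472 was not with library totals, with the striatal score (adjusted p = 0.0530 and 0.469, edgeR), with both scores (0.124) or in 6 of the 9 fits without 1 library. Between LP and HP libraries of the same replicate number, correlations of deviations were weak (0.14, -0.028 and 0.16 for replicates 1, 2 and 3). Those of replicates 1 and 3 were the highest of any LP and HP pair, while LP replicate 2 correlated best with HP replicate 1 (0.095). Whether the replicate numbers mark shared handling was not tested. The replicate block gave 1 higher and 3 lower, with Arpp21 and Padi4 added (adjusted p = 0.0497 and 0.0101, edgeR).

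Of the values of named genes under these alternatives, 2334 kept their direction and their side of the threshold, 85 newly passed it, 9 no longer passed it and 35 turned sign. With both scores as terms the log2 fold changes were 0.15 for Crym, 0.22 for Ppp1r1b, 0.22 for Kcnh3, 0.70 for Gabrd, 0.045 for Slco1a4, 0.021 for Camk2a, 0.35 for Egr3, 0.35 for Itpka, 0.060 for Penk, 0.071 for Npas2, 0.61 for Alas2, -0.017 for Peg10, 0.37 for Icam1, 0.015 for Npy and 0.65 for Mc4r. With the striatal score alone they were 0.13 for Kcnh3, 0.74 for Gabrd, 0.026 for Sv2c, 0.061 for Camk2a, 0.32 for Egr3, 0.29 for Itpka, 0.12 for Penk and 0.59 for Mc4r. With 1 library left out at a time, or LP replicate 3 and HA replicate 3 together, Ogn ran from -3.00 to 0.9992, Slc4a1 from -1.56 to 0.55 and Lepr from -0.80 to 0.021, each above 0 in the fits without LP replicate 3 (Ogn 0.9991 in the joint one). Mc4r ran from -0.36 to 0.035, with 0.016 when LP replicate 2 was left out. Agrp ran from -0.089 to 0.33 and Cartpt from -0.093 to 0.14, both below 0 without HP replicate 2, and Cartpt was -0.0091 with voom quality weights. Summed with Rps7, an alternative chosen after seeing the data, Gm6472 was -0.053. The cause of these turns was not tested. What depth limits was not tested.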
